A study of Mus musculus with 8 samples.

Results

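The nuclear-encoded subunits of respiratory complexes II, III, IV and V and cytochrome *c* were examined in skeletal muscle of aged mice with and without the mitochondrial RNA-binding protein GRSF1. Members were the array probes that target a mouse RefSeq transcript of *Sdha* to *Sdhd*, *Cyc1*, *Cycs* or a gene whose symbol begins with Uqcr, Atp5 or a subunit name from Cox4 to Cox8. This gave 48 genes with 63 probes, of 22911 genes with a symbol and 56605 different probes on the array. There were 4 genes of complex II, 9 of complex III, the gene for somatic cytochrome *c*, 17 of complex IV and 17 of complex V. The rule used only names and no measured value, and *Cox5b*, which also fits the name, had no listed probe.

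RNA came from 3 Grsf1cKO and 3 WT male mice, all 17 months old, and was hybridized to Agilent 1-color arrays. WT 1 and Grsf1cKO 1 were each hybridized to a second, repeat array. Grsf1cKO mice descended from *Grsf1tm1a* animals, lost the LacZ and Neo cassettes through FLPo, and carried loxP sites around exons IV and V of *Grsf1* that were recombined by Myf5Cre. Whether the WT mice carried a floxed allele or Cre is not given in the sources used here. The *Myf5* promoter is active in precursors of skeletal muscle and also of brown fat, so other cells of the muscle may keep *Grsf1*, which was not measured by cell type. The labels name the vastus intermedius and the study's methods the rectus femoris, both muscles of the quadriceps. All values are log2 signals after quantile normalization, averaged over the arrays of a mouse, and fold changes are Grsf1cKO minus WT on this log2 scale unless given as a fold.

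Oxidative phosphorylation passes electrons from succinate dehydrogenase (complex II) and NADH dehydrogenase (complex I) through the cytochrome *bc1* complex (complex III) and cytochrome *c* to cytochrome *c* oxidase (complex IV), while ATP synthase (complex V) uses the resulting proton gradient to make ATP. Complex II is encoded wholly in the nucleus, whereas complexes III, IV and V combine nuclear subunits with subunits made from mitochondrial RNA, the kind of RNA that GRSF1 binds. Skeletal muscle makes muscle-type isoforms of some complex IV subunits in addition to the isoforms found in most tissues.

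Promoters of these genes are known for sites of the factors NRF-1 and NRF-2 (GABP, an ETS factor), so the windows from 250 bases before to 50 after the transcription start were searched on both strands in RefSeq sequences of GRCm38.p6, in which 36 of the 48 members had a window. The NRF-1 core (GCGCA, any base, then GCGC) was found in 10 of the 36 members (27.8%), against 5.19% of all 27025 genes with a window and 7.17% of the 17492 protein-coding genes. The ETS core CCGGAAG was found in 13 members (36.1%), against 9.93% of all genes and 12.9% of protein-coding genes. A myogenic E-box, CAGCTG, was found in 2 members (5.56%), against 18.3% of all and 17.4% of protein-coding genes, and a MEF2 motif in 0 members, against 0.636% of all genes. A match only describes the letters of the window, and no site was measured in these mice. Of 15 complex V genes with a window, 6 held the NRF-1 core and 6 the ETS core, while of 12 complex IV genes these numbers were 1 and 3.

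The following 4 windows are all on the minus strand. They are shown for *Sdha*, the member whose brightest probe differed most between genotypes, for the widely expressed isoforms *Cox6a1* and *Cox8a*, and for the muscle-type isoform *Cox8b*. Motif matches are in capitals and do not overlap in these windows, and the ETS core appears as CTTCCGG where it lies on the other strand. The window of *Sdha* at chr13:74350191-74350490 held 3 NRF-1 cores, beginning at -98, -55 and -10 from the start site. The window of *Cox6a1* at chr5:115348909-115349208 held NRF-1 cores at -162 and -117 and an ETS core at -16. The window of *Cox8a* at chr19:7217567-7217866 held ETS cores at -5 and 33, and that of *Cox8b* at chr7:140900397-140900696 held neither of these motifs but E-boxes at -19 and 17. The windows of *Cox7a1* and *Cox7a2*, the muscle-type and the widely expressed isoform of subunit 7a, held 0 matches of any of the motifs and are not shown.
Sdha: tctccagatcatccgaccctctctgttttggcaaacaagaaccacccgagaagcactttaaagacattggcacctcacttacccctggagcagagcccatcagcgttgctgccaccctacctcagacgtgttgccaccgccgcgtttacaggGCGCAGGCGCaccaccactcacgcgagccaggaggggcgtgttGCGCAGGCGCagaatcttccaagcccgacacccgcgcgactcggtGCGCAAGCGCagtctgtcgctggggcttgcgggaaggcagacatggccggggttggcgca
Cox6a1: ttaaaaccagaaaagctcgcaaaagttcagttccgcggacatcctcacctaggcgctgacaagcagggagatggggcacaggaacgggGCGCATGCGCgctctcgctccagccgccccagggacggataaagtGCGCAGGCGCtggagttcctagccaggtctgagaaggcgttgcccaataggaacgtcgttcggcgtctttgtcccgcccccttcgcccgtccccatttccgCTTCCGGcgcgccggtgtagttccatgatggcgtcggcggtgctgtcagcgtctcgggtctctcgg
Cox8a: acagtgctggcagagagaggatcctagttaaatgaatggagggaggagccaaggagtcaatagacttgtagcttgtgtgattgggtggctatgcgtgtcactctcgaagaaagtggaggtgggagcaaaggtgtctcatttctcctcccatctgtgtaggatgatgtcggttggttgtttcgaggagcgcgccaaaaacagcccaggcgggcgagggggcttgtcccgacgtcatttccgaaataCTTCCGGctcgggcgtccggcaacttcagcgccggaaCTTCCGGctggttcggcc
Cox8b: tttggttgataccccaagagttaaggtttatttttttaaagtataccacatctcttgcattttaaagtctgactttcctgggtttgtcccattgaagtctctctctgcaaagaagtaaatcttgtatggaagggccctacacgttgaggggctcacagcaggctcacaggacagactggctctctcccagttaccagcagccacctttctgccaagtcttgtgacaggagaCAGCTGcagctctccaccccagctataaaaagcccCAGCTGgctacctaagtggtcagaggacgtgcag

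The *Grsf1* probe checked the labels first. Its log2 signal was 12.15, 12.02 and 12.08 in the Grsf1cKO mice, against 14.30, 14.25 and 14.27 in the WT mice, so that every Grsf1cKO mouse lay far below every WT mouse. The log2 fold change was -2.19 ± 0.0811 (SE, limma adjusted *p* = 0.00328). All 8 skeletal muscle markers examined (*Acta1*, *Ckm*, *Des*, *Ttn*, *Mb*, *Tnnt3*, *Myh4* and *Myh1*) were well above background in all 6 mice. Between 66.3% and 73.1% of the spots were well above background on 7 arrays, and 88.9% on the repeat of Grsf1cKO 1, where low signals were raised. In RNA from whole muscle, fewer cells of a type and less RNA per cell cannot be told apart.

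None of the member mRNAs passed the criteria for a change between genotypes, and their measured differences were small. Of the 48 genes, 47 were well above background in enough mice to be tested, and 0 of the 47 had a fold change over 1.5 with an unadjusted *p* under 0.01 and a false discovery rate under 0.2, against 0.00771% of the 38888 probes tested with limma. At an unadjusted *p* under 0.05 the members again numbered 0 in either direction, against 4.25% of all probes (1.29% higher and 2.96% lower in Grsf1cKO). Because limma shares variance across probes, no member had an SE below 0.0746, although the lowest pooled SD within genotypes was 0.0106. This count therefore says little about small, steady differences. The lowest unadjusted *p* was 0.0886, for *Sdha*, and the lowest adjusted *p* 0.996 (limma, 3 mice of each genotype). On the brightest probes, the median log2 fold change over the members was -0.021, with a range from -0.20 for *Sdha* to 0.15 for *Cox7a2*. The median over all probes was -0.026.

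How large a change the data allow after quantile normalization is shown by the 95% interval of each log2 fold change. These intervals do not include the differences between scalings, which moved *Cox8b* from 0.0014 to -0.15 with 75th percentile scaling. On the brightest probe, this interval lay within 1.5-fold in either direction for 46 of the 47 members (97.9%), and within 1.2-fold for 25. The same was true at 1.5-fold for 62.9% of all probes tested and for 94.9% of the 3420 probes with a mean log2 signal over 14. The exception was *Cox7b2*, a testis-type isoform of a complex IV subunit, with an interval from 0.631-fold to 1.69-fold. Its log2 signal ran from 4.38 to 5.35 in Grsf1cKO and from 4.72 to 5.19 in WT mice, and it was well above background in 5 mice. *Cox8c*, another testis isoform, was well above background in 0 mice, with log2 signals from 2.29 to 2.99, and was not tested. A dimmer probe of *Cox7c* also had a wider interval, from 0.505-fold to 1.46-fold. The number of members within 1.5-fold was 46 with 75th percentile scaling, 47 with another background correction and 45 with the deposited *z*-scores. The number within 1.2-fold was not computed under these alternatives.

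**Figure D1:**
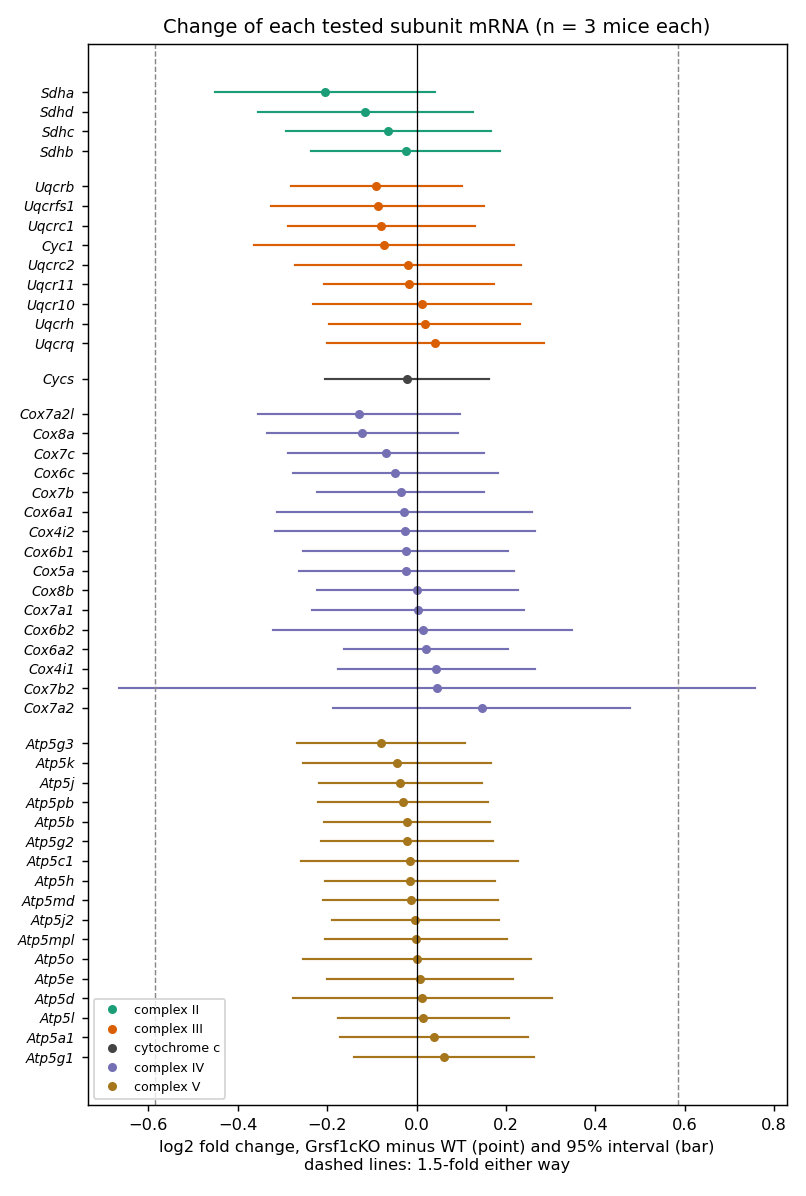
Log2 fold change (Grsf1cKO minus WT, points) and 95% interval (bars, limma) of the 47 tested member genes, by complex. The brightest probe stands for each gene, and dashed lines mark 1.5-fold either way. All intervals include 0, and only that of *Cox7b2* crosses the dashed lines.

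The direction of these small differences was mostly downward but not settled. In all, 31 of the 47 log2 fold changes (66%) were below 0 and 16 above, against 57.5% below 0 among all probes and 61.8% among probes over 14. All Grsf1cKO mice were below all WT mice for 4 members (8.51%), against 6.27% of 38859 probes, and all were above for 0, against 3.08%. Both directions together made up 9.35% of all probes. With scaling to the 75th percentile of each array in place of quantile normalization, 43 members were below 0 and 4 above, against 46.3% of all probes below 0. With the *z*-scores deposited by the authors, 5 members were below 0 and 42 above, against 62.1% of all probes below 0. The median over the members was -0.087 with 75th percentile scaling and 0.057 with the *z*-scores. With the *z*-scores, the mean over the members relative to WT was 0.19, 0.067 and -0.094 in Grsf1cKO 1, 2 and 3. It was 0.073, -0.015 and -0.058 in WT 1, 2 and 3, so the genotypes overlapped. The *z*-scores were not fitted without Grsf1cKO 1 or its repeat array. Of the 47 members, 30 had a mean log2 signal over 17, a threshold set after the values were seen. The other 17 were not set beside probes of their own brightness. Over all 445 probes above 17 the median moved the same way. It was -2.6e-05 after quantile normalization, -0.100 with 75th percentile scaling and 0.079 with the *z*-scores. Each median of a complex is therefore given below with its values under these scalings.

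**Figure D2:**
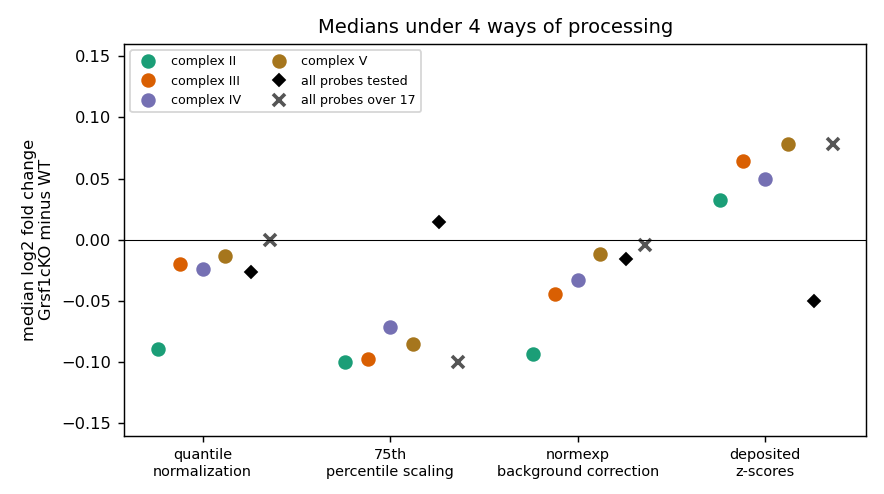
Median log2 fold change (Grsf1cKO minus WT) of the genes of complexes II to V (circles), of all probes tested (diamonds) and of all 445 probes with a mean log2 signal over 17 (crosses) under 4 ways of processing. All medians of complexes are below 0 with 75th percentile scaling and above 0 with the deposited *z*-scores.

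Complex II, which oxidizes succinate in the citric acid cycle, had the lowest median of the complexes after quantile normalization. The log2 fold change was below 0 for all 4 of its genes, with a median of -0.089. It was -0.10 with 75th percentile scaling and 0.032 with the deposited *z*-scores, so the direction turned. The mean log2 signal of the 4 genes, relative to the WT mean, was -0.044, -0.12 and -0.14 in Grsf1cKO 1, 2 and 3, against 0.061, 0.0064 and -0.067 in WT 1, 2 and 3. Grsf1cKO 1 lay above WT 3, so that the genotypes overlapped.

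*Sdha* encodes the flavoprotein that holds the succinate-binding site, and its log2 signal was 16.20, 15.96 and 16.03 in Grsf1cKO and 16.35, 16.26 and 16.20 in WT mice. Grsf1cKO 1 was level with WT 3, and the other 2 Grsf1cKO mice were below all WT mice. The log2 fold change was -0.20 ± 0.10 (SE), with an interval from 0.732-fold to 1.03-fold (limma unadjusted *p* = 0.0886, adjusted *p* = 0.996, exact permutation *p* = 0.2). It was also below 0 under the other scalings, at -0.20 with 75th percentile scaling and -0.079 with the deposited *z*-scores. Without Grsf1cKO 1 the difference was -0.27 (limma unadjusted *p* = 0.0471, adjusted *p* = 0.985). A dimmer probe of *Sdha* gave -0.11 and had all Grsf1cKO mice below all WT mice, with log2 signals of 13.80, 13.70 and 13.82 against 13.86, 13.83 and 13.95.

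*Sdhb*, the iron-sulfur subunit, read 17.46, 17.46 and 17.59 in Grsf1cKO and 17.59, 17.48 and 17.51 in WT mice. The genotypes overlapped throughout, with a log2 fold change of -0.025 ± 0.0867 (SE). The membrane anchors *Sdhc* and *Sdhd* had log2 fold changes of -0.063 ± 0.0936 and -0.11 ± 0.0983 (SE, limma adjusted *p* = 0.997 and 0.996).

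In complex III, which passes electrons from ubiquinol to cytochrome *c*, 6 of 9 log2 fold changes were below 0 and 3 above, with a median of -0.020 and a range from -0.090 for *Uqcrb* to 0.042 for *Uqcrq*. The median was -0.097 with 75th percentile scaling and 0.064 with the *z*-scores. All 9 intervals lay within 1.5-fold. The mean over the 9 genes relative to WT was 0.019, -0.040 and -0.077 in Grsf1cKO 1, 2 and 3, against 0.019, -0.044 and 0.026 in WT 1, 2 and 3, with Grsf1cKO 1 at the level of WT 1.

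*Uqcrb*, which encodes a small subunit near a quinone-binding site, read 17.05, 17.02 and 17.05 in Grsf1cKO and 17.15, 17.08 and 17.16 in WT mice. The Grsf1cKO mice all lay below the WT mice, by a log2 fold change of only -0.090 ± 0.0781 (SE, limma adjusted *p* = 0.996, exact permutation *p* = 0.1, the smallest that 3 mice against 3 allow). A dimmer probe of the gene gave -0.10, with overlapping genotypes. The Rieske iron-sulfur protein, *Uqcrfs1*, read 16.86, 16.80 and 16.74 in Grsf1cKO and 17.00, 16.91 and 16.76 in WT mice. WT 3 lay among the Grsf1cKO mice, and the log2 fold change was -0.087 ± 0.0973 (SE).

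*Cyc1*, the heme-bearing cytochrome *c1*, read 16.30, 16.26 and 16.01 in Grsf1cKO and 16.18, 16.20 and 16.40 in WT mice. Grsf1cKO 3 was the lowest and WT 3 the highest, and the log2 fold change was -0.072 ± 0.119 (SE). It was 0.018 without Grsf1cKO 3, -0.0036 without WT 3, -0.13 without Grsf1cKO 1 and 0.071 with the deposited *z*-scores. The core proteins *Uqcrc1* and *Uqcrc2* had log2 fold changes of -0.079 and -0.020, and the small subunits *Uqcr10*, *Uqcr11*, *Uqcrh* and *Uqcrq* lay between -0.017 and 0.042.

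*Cycs* encodes the mobile carrier cytochrome *c*, and its brightest probe read 17.49, 17.46 and 17.49 in Grsf1cKO and 17.51, 17.49 and 17.50 in WT mice. All 6 mice lay within a narrow range, with a log2 fold change of -0.021 ± 0.0748 (SE). A dimmer probe read 16.34, 16.32 and 16.02 in Grsf1cKO and 16.52, 16.37 and 16.38 in WT mice. Here all Grsf1cKO mice were below all WT mice, with a log2 fold change of -0.20 ± 0.12 (SE, limma unadjusted *p* = 0.150). The difference of 0.177 between the *Cycs* probes was the largest within a gene among the 13 members with several tested probes, of which 9 had the same sign on all their probes. *Cyct*, the form of testis, was well above background in 0 mice.

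In complex IV, 16 of 17 genes were tested, with 9 log2 fold changes below 0 and 7 above. Their median was -0.024, with -0.071 under 75th percentile scaling and 0.050 with the *z*-scores. On the brightest probes the range ran from -0.13 for *Cox7a2l* to 0.15 for *Cox7a2*, and 15 of 16 intervals lay within 1.5-fold. The mean over these genes relative to WT was 0.015, -0.037 and -0.022 in Grsf1cKO 1, 2 and 3, against 0.016, 0.0030 and -0.019 in WT 1, 2 and 3, with overlapping genotypes.

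*Cox7b*, a small subunit of the enzyme, was the only complex IV gene with all tested Grsf1cKO values below WT. It read 16.94, 16.95 and 16.89 in Grsf1cKO and 16.95, 16.98 and 16.95 in WT mice. Its log2 fold change was -0.035 ± 0.0763 (SE), and Grsf1cKO 2 and WT 3 were almost level. *Cox7a2l*, a factor that joins complexes III and IV into supercomplexes, had a log2 fold change of -0.13 ± 0.0924 (SE, limma adjusted *p* = 0.996). *Cox5a*, *Cox6b1*, *Cox6b2*, *Cox6c* and *Cox7c* lay between -0.068 and 0.013 on their brightest probes. A dimmer probe of *Cox7c* gave -0.22 ± 0.312 (SE, limma unadjusted *p* = 0.503). Its log2 signals were 14.71, 15.38 and 14.70 in Grsf1cKO and 14.79, 15.74 and 14.93 in WT mice, with overlapping genotypes.

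For subunits 4, 6a, 7a and 8 of complex IV the muscle-type or otherwise restricted isoform was set against the widely expressed one. A probe's brightness cannot be compared with that of another probe, so only the change of their log2 difference between genotypes was read, for 4 pairs. With 3 mice against 3, a 2-sided exact permutation test cannot give *p* below 0.1. The 95% intervals of all 4 differences included 0, and each difference was smaller than the SD among the WT mice, although 3 exceeded the SD among the Grsf1cKO mice.

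*Cox6a2*, the heart and muscle isoform of subunit 6a, read 18.53, 18.52 and 18.53 in Grsf1cKO and 18.53, 18.49 and 18.51 in WT mice. *Cox6a1*, its widely expressed counterpart, read 15.99, 16.04 and 16.04 in Grsf1cKO and 16.25, 16.04 and 15.87 in WT mice. After quantile normalization *Cox6a2* was nearly level in all 6 mice, while *Cox6a1* was spread more widely among the WT mice than among the Grsf1cKO mice. The log2 fold change of *Cox6a2* was 0.020, but -0.13 both with 75th percentile scaling and with the deposited *z*-scores. The log2 difference *Cox6a2* minus *Cox6a1* changed by 0.047, with a 95% interval from -0.24 to 0.34 (exact permutation *p* = 0.7). It was -0.093 with 75th percentile scaling, -0.20 with the *z*-scores, -0.041 without WT 1 and 0.14 without WT 3, so no direction can be given.

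*Cox7a1*, the heart and muscle isoform of subunit 7a, read 18.18, 18.11 and 18.07 in Grsf1cKO and 18.18, 17.98 and 18.19 in WT mice, with a log2 fold change of 0.0032 ± 0.0967 (SE) that was -0.14 with 75th percentile scaling. *Cox7a2*, its widely expressed counterpart, read 16.75, 16.92 and 16.65 in Grsf1cKO and 16.46, 16.85 and 16.57 in WT mice. WT 2 lay among the Grsf1cKO mice, and the other 2 WT mice were below them all. The log2 fold change of *Cox7a2*, 0.15 ± 0.136 (SE, limma unadjusted *p* = 0.327), was the highest among the members after quantile normalization. With 75th percentile scaling *Cox7a2* was at 0.13, and the highest member was at 0.25. With 1 mouse left out *Cox7a2* ran from 0.063 without WT 1 to 0.26 without WT 2. *Cox7a1* minus *Cox7a2* was lower in Grsf1cKO by a log2 difference of -0.14, with a 95% interval from -0.70 to 0.41 (exact permutation *p* = 0.6). It was below 0 under all 16 alternatives, from -0.33 on slide 2 alone to -0.028 without WT 1.

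*Cox8b*, the heart and muscle isoform of subunit 8, read 18.14, 18.05 and 18.04 in Grsf1cKO and 18.13, 17.96 and 18.14 in WT mice, with a log2 fold change of 0.0014 ± 0.0921 (SE) that was -0.15 with 75th percentile scaling. *Cox8a*, its widely expressed counterpart, read 15.75, 15.80 and 15.75 in Grsf1cKO and 15.89, 15.98 and 15.79 in WT mice. For *Cox8a*, WT 3 lay just below Grsf1cKO 2, and the log2 fold change was -0.12 ± 0.0874 (SE, limma adjusted *p* = 0.996). The log2 difference *Cox8b* minus *Cox8a* changed by 0.12, with a 95% interval from -0.20 to 0.45 (exact permutation *p* = 0.4), and was -0.027 with 75th percentile scaling. With 1 mouse left out it ran from 0.019 without WT 2 to 0.20 without WT 3. *Cox8b* is also made in brown fat, and a marker list of *Ucp1*, *Cidea* and *Cox8b* itself had mean log2 signals relative to WT of -1.38, 0.21 and -0.64 in Grsf1cKO and 1.64, -0.66 and -0.98 in WT mice. *Ucp1*, well above background in 3 mice, had a log2 fold change of -1.94 ± 1.81 (SE), while *Cidea* had one of 0.14 ± 0.563 (SE). The part of these cells in the *Cox8b* values was not tested.

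*Cox4i2*, the isoform of subunit 4 known from lung and from oxygen sensing, read 10.25, 10.36 and 10.30 in Grsf1cKO and 10.17, 10.54 and 10.28 in WT mice. *Cox4i1*, the widely expressed isoform, read 17.96, 17.80 and 17.90 in Grsf1cKO and 17.82, 17.78 and 17.93 in WT mice. Both overlapped between genotypes, with log2 fold changes of -0.026 ± 0.119 and 0.044 ± 0.0905 (SE). *Cox4i2* minus *Cox4i1* changed by -0.070, with a 95% interval from -0.50 to 0.36 (exact permutation *p* = 0.7). It was 0.057 with 75th percentile scaling, 0.067 on slide 2 alone, 0.066 without WT 2 and -0.20 with the *z*-scores, so no direction can be given here either. Across the 4 pairs the intervals allow changes of up to 1.26-fold to 1.36-fold toward the muscle-type or restricted isoform and, in the other direction, of down to 0.617-fold to 0.870-fold.

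**Figure D3:**
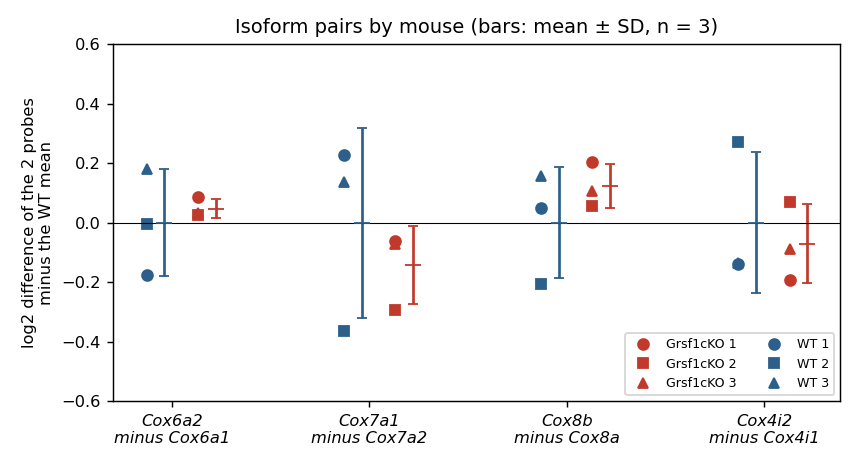
Log2 difference between the probes of each isoform pair in each mouse, relative to the WT mean (y axis, log2), with mean ± SD (n = 3) beside the points of each genotype. The Grsf1cKO points lie within the range of the WT points for *Cox6a2* minus *Cox6a1*, *Cox7a1* minus *Cox7a2* and all but Grsf1cKO 1 of the other 2 pairs.

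Complex V, which makes ATP, had the median closest to 0 of the complexes after quantile normalization. Of its 17 genes, 11 had a log2 fold change below 0 and 6 above, with a median of -0.013 and a range from -0.080 for *Atp5g3* to 0.061 for *Atp5g1*. The 17 intervals all lay between 0.825-fold and 1.23-fold. The median was -0.085 with 75th percentile scaling and 0.079 with the *z*-scores. The mean over the 17 genes relative to WT was 0.012, -0.027 and -0.012 in Grsf1cKO 1, 2 and 3, against 0.0046, -0.031 and 0.026 in WT 1, 2 and 3, so that the genotypes overlapped.

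In the catalytic head, *Atp5a1* (alpha) read 18.16, 18.12 and 18.06 in Grsf1cKO and 18.12, 17.99 and 18.12 in WT mice, with a log2 fold change of 0.039 ± 0.0861 (SE). It was -0.11 with 75th percentile scaling and 0.071 with the deposited *z*-scores. *Atp5b* (beta), which carries the catalytic sites, read 18.14, 18.09 and 18.12 in Grsf1cKO and 18.15, 18.12 and 18.16 in WT mice. The log2 fold change of *Atp5b* was -0.022 ± 0.0759 (SE), with -0.14 under 75th percentile scaling and 0.050 with the *z*-scores. Both genes overlapped between genotypes after quantile normalization. Of the central stalk, *Atp5c1* (gamma), *Atp5d* (delta) and *Atp5e* (epsilon) lay between -0.015 and 0.013.

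The genes *Atp5g1*, *Atp5g2* and *Atp5g3* encode the same mature subunit *c*, the proteolipid of the rotating ring, and differ in their targeting peptides. *Atp5g3* read 17.49, 17.45 and 17.50 in Grsf1cKO and 17.60, 17.54 and 17.54 in WT mice, with no overlap between genotypes. Its log2 fold change was -0.080 ± 0.0769 (SE, limma adjusted *p* = 0.996, exact permutation *p* = 0.1). *Atp5g1* and *Atp5g2* had log2 fold changes of 0.061 ± 0.0822 and -0.022 ± 0.0787 (SE) on their brightest probes. A dimmer probe of *Atp5g1* gave -0.023, so that its probes differed in sign.

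*Atp5j*, coupling factor 6 of the peripheral stalk, read 17.40, 17.38 and 17.39 in Grsf1cKO and 17.43, 17.42 and 17.41 in WT mice. Here too the Grsf1cKO mice all lay below the WT mice, by a log2 fold change of -0.036 ± 0.0746 (SE). The SE comes mainly from the variance that limma shares across probes, since the SD was 0.0114 among the Grsf1cKO and 0.00985 among the WT mice (n = 3). A *z*-test of the kind the methods name, which shares no variance across probes, was run here on the quantile normalized log2 signals and gave adjusted *p* of 0.00289 for *Atp5j*, 0.0468 for *Atp5g3* and 0.0773 for *Uqcrb*, all far below the 1.5-fold criterion in size. This test gave an unadjusted *p* under 0.05 for 10.8% of all probes. With the deposited *z*-scores the differences were above 0, at 0.079, 0.043 and 0.021. The other stalk and membrane subunits (*Atp5h*, *Atp5j2*, *Atp5k*, *Atp5l*, *Atp5md*, *Atp5mpl*, *Atp5o* and *Atp5pb*) lay between -0.045 and 0.015 on their brightest probes. A dimmer probe of *Atp5o* gave -0.12 ± 0.0794 (SE, limma unadjusted *p* = 0.172), with log2 signals of 16.13, 16.10 and 16.06 in Grsf1cKO, all below the 16.22, 16.17 and 16.27 in WT mice, and a dimmer probe of *Atp5md* gave -0.11 ± 0.0904 (SE).

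Variation among the members was small in all mice. The median pooled SD within genotypes was 0.0756 on the log2 scale, from 0.0106 to 0.422, and 39 of 47 genes had a range below 0.3 over the 6 mice. The median size of the difference between genotypes, taken between means of 3 mice, was 0.0259. Between the single arrays of the same mouse, which no averaging steadies, the median size of the difference was 0.0244 for WT 1 (47 genes) and 0.0394 for Grsf1cKO 1 (46 genes, as the *Cox6a2* spot of the repeat was flagged as non-uniform). The mice differed in a shared way among the brightest members, a group formed after their values were seen. Of 30 members with a mean log2 signal over 17, WT 2 was the lowest WT mouse for 21 (70%) and Grsf1cKO 2 the lowest Grsf1cKO mouse for 19 (63.3%), against 38.7% and 33% of all 445 probes over 17. With 75th percentile scaling these counts were 14 (46.7%) and 4 (13.3%), so that they depended on the scaling in both mice. The shares over all bright probes were not computed under that scaling.

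The members were also set beside the slides and the genes of other fibers and cells. Slide 1 held WT 2 and the first array of WT 1, and slide 2 all other arrays. On slide 2 alone, with 3 Grsf1cKO and 2 WT mice, all Grsf1cKO mice were lower for 12 of 47 members, against 13.2% of 38197 probes, and higher for *Cox7a2*, against 7.16% of probes, with 0 members past the criteria. Slow fibers hold more mitochondria than fast fibers, and a list of 8 slow or oxidative fiber genes (*Myh7*, *Myh2*, *Tnni1*, *Tnnt1*, *Tnnc1*, *Myl2*, *Myl3* and *Atp2a2*) had mean log2 signals relative to WT of 0.19, -0.17 and 1.02 in Grsf1cKO 1, 2 and 3, against -0.37, 0.18 and 0.19 in WT 1, 2 and 3. Of these 8 genes, 7 had a log2 fold change above 0 and 1 below, with a median of 0.39, whereas 57.5% of all probes were below 0. *Myl2* was at 0.63 ± 0.257 (SE, limma unadjusted *p* = 0.0489, adjusted *p* = 0.996) and the slow troponin *Tnni1* at 1.13 ± 0.974 (SE). The gene below 0 was the slow myosin *Myh7*, at -0.59 ± 0.774 (SE). *Myh2* is the myosin of fast oxidative fibers. Grsf1cKO 3 stood highest for the mean of the list, while its mean over the members was -0.039, between -0.041 in Grsf1cKO 2 and 0.0092 in Grsf1cKO 1. The mean over 8 fast fiber genes, relative to WT, lay between -0.024 and 0.031 in all 6 mice. A macrophage list of 5 genes was also highest in Grsf1cKO 3, at 0.73, against -0.13 to 0.086 in the other 5 mice. A fibroblast list of 5 genes, all with log2 fold changes above 0, was likewise highest in that mouse, at 0.44, against -0.15 to 0.20 in the others. The part of these cells and fibers in the members' values was not tested.

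**Figure D4:**
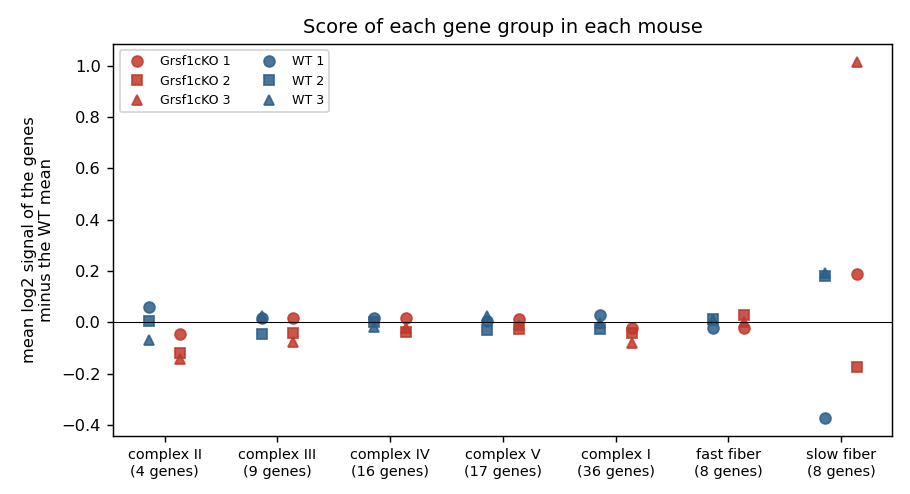
Mean log2 signal of the genes of each complex, of complex I and of fast and slow fiber genes in each mouse, relative to the WT mean (y axis, log2). Complexes II to V stay between -0.14 and 0.061 in all 6 mice, whereas the slow fiber genes run from -0.37 in WT 1 to 1.02 in Grsf1cKO 3.

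The nuclear subunits of complex I, the group most like these members, gave 28 of 36 log2 fold changes below 0, against 57.5% of all probes, with a median of -0.064. Of the 36, 8 had all Grsf1cKO mice below all WT mice, against 6.27% of all probes, 0 passed the criteria, and 35 had an interval within 1.5-fold, against 62.9% of all probes and 94.9% of those over 14. Whether complexes II to V differ from complex I was not tested. Proteins of the same complexes under other symbols gave a log2 fold change of -0.17 ± 0.104 for *Ndufa4*, a subunit now placed in complex IV, of -0.030 ± 0.0815 for its relative *Ndufa4l2*, and of 0.11 ± 0.101 for *Atpif1*, the inhibitor of ATP synthase (SE, limma adjusted *p* = 0.996, 0.998 and 0.996).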

How the data were processed

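Total RNA was labeled with Cy3 and hybridized to 8 arrays of 6 mice. The authors deposited the intensity of each spot as Feature Extraction 12.0.3.1 gives it, on a linear scale and background-subtracted, and a table in which the score of a spot is its log2 *z*-score within the array. The methods state quantile normalization, log2 *z*-scores and a *z*-test with further filters that were not applied here. Here, control spots and flagged spots were left out, quantile normalization was applied to the processed signals of the 8 arrays, and log2 values were averaged over spots and then by mouse. A probe was tested if at least 3 mice had it well above background and each genotype had values in at least 2 mice. The test was limma 3.58.1 (R 4.3.3; genotype only, Benjamini-Hochberg over 38888 probes). No non-control spot was saturated. Deposited *z*-scores were multiplied by the mean SD of the arrays to return to log2.

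Names came from probe accessions through RefSeq (GRCm38.p6), which named 32994 probes. Its positions are given only for the promoter windows, in that build, and not for genes or probes, since the array files carry mm9. The brightest probe stood for a gene. Values per mouse are given for isoform pairs, members whose genotypes did not overlap, those with the largest difference in each complex, and subunits with catalytic or redox centers. Members and lists were chosen with earlier results of these data known. The scripts were tested on simulated data. The number of arrays limits the precision. Alternatives covered scaling, background correction, detection, repeat arrays, slide, test, replicate block, probe choice and each mouse left out, and leaving out the repeat of Grsf1cKO 1 was added after seeing the data.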

Additional observations from a re-analysis of the deposited data

How the results depend on the processing

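Under all 20 alternatives run, 0 members passed the criteria. Of 380 log2 fold changes of the 19 members given by mouse, each under 20 alternatives, 37 had the opposite sign to the main value. The 4 members whose genotypes did not overlap became 8 with 75th percentile scaling, 0 with the deposited *z*-scores and 13 on the slide that holds both genotypes. With a mouse left out they ranged from 5 to 13 (10 without WT 1, 13 without WT 2, 9 without WT 3 and 8 without Grsf1cKO 2), where fewer mice overlap less by construction. Over all probes the share was 9.35% in the main setting. On slide 2 alone, 13.2% of all probes were lower and 7.16% higher in every Grsf1cKO mouse. No such share was computed under the other alternatives, so their counts are not read as a result about the members. The count at an unadjusted *p* under 0.05, 0 with limma, was 6 with a *z*-test of the kind the methods name, run on the quantile normalized log2 signals (*Atp5g3*, *Atp5j*, *Cox8a*, *Cycs*, *Sdha* and *Uqcrb*, all lower in Grsf1cKO on this scale and under 1.5-fold, of which *Atp5g3*, *Atp5j*, *Cycs* and *Uqcrb* were above 0 with the deposited *z*-scores), against 10.8% of all 38888 probes with that test, 1 with an intensity trend in limma (*Sdha*, adjusted *p* = 0.982) and 0 to 1 with a mouse left out (*Sdha* without Grsf1cKO 1). The share of all probes with an unadjusted *p* under 0.05 was 3.55% with the trend and 4.21% to 5.47% with a mouse left out. Over all probes the *z*-test called 379, against 3 with limma.

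With 75th percentile scaling the median log2 fold changes of complexes III, IV and V moved to -0.097, -0.071 and -0.085, and with the deposited *z*-scores those of complexes II, III, IV and V turned to 0.032, 0.064, 0.050 and 0.079. With a mouse left out they ranged from -0.13 to -0.063 in complex II, -0.055 to 0.0093 in III, -0.037 to 0.015 in IV (0.015 without WT 1) and -0.026 to 0.0034 in V. The isoform differences changed sign in 3 of 16 alternatives for *Cox6a2* minus *Cox6a1*, 0 for *Cox7a1* minus *Cox7a2*, 1 for *Cox8b* minus *Cox8a* and 3 for *Cox4i2* minus *Cox4i1*. The cause was not tested. Scaling moved the median of all probes by at most 0.041.

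Replicate numbers do not mark shared animals. Same-numbered samples deviated together with correlations of 0.232, 0.0970 and 0.104 over 38859 probes, and every sample correlated best with its own number. With the replicate number as a block, 0 members passed the criteria and 0 had an unadjusted *p* under 0.05, against 6.2% of all probes. In that fit *Sdha* stood at -0.20 (limma adjusted *p* = 0.796), and 1 probe of the whole array was called in place of 3. The *z*-test, the trend and the replicate block leave the fold changes as they are or nearly so. The slide as a block moved them (*Cox7a1* to -0.049, *Cox7a2* to 0.19, *Cox4i2* to 0.024 and *Sdha* to -0.18), and the medians, overlaps and isoform differences were not computed in that fit. Signal over background limits only *Cox7b2* and *Cox8c* among the members.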
